A study of Mus musculus with 18 samples.

Results

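Smooth muscle contractile genes encode the actin, myosin and companion proteins with which the muscle layers of the colon shorten, and 10 of them were followed here through the day: Acta2, Actg2, Myh11, Mylk, Cnn1, Tagln, Smtn, Lmod1, Des and Kcnmb1. They were taken by symbol from the platform annotation, in which 18193 genes had a probe set of their own, and were represented by 17 of the 45037 probe sets on the array. Of these 17, 16 passed the filter on low signal and covered all 10 genes among the 12870 genes tested. The probe set left out was a further one for Acta2, 1456658_at, with signals between 19.0 and 237.

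Mouse distal colon, cut just above the anus, was profiled on Affymetrix arrays to find transcripts that change over the day. All mice had 2 weeks to adapt to days of 12 h light, from clock hour 7 to 19, and 12 h dark, ate freely, and were sampled every 4 h. The light groups were 8am, 12pm and 4pm, which fell 1, 5 and 9 h after lights on, and the dark groups were 8pm, 12am and 4am, which fell 13, 17 and 21 h after lights on. Each time had 3 arrays, named a, b and c. Strain, sex and age are not given in the sources used here. Nor is it stated whether arrays a, b and c are separate animals or pools, so p-values measure only the spread between these samples, which may be technical. RNA came from pieces of tissue with many cell types, in which fewer muscle cells and less RNA per muscle cell cannot be told apart.

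In smooth muscle, a rise of calcium activates calmodulin, which switches on myosin light chain kinase. The kinase phosphorylates the light chain of myosin, and myosin then pulls on actin filaments that are anchored to a scaffold of desmin. Most genes of this apparatus are switched on together by serum response factor (Srf), which binds a short DNA element called the CArG box, and its partner myocardin (Myocd).

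The promoter of Acta2 shows what such elements look like. Promoter windows from RefSeq, 250 bases before to 50 bases after the start of transcription on mouse build GRCm38.p6, were at hand for 7 of the 10 genes: Acta2, Mylk, Cnn1, Smtn, Lmod1, Des and Kcnmb1. The strict box is CC, 6 bases of A or T, then GG, a pattern that reads the same on both strands, and the relaxed box allows 1 G or C among the 6 inner bases. No strict box was found in the 7 windows, against 1.63% of 32851 windows of all genes. Relaxed boxes occurred in 1 of the 7, that of Acta2, and in 9.98% of all windows. The Acta2 window held 2 of them, as 0.822% of all windows did at least. Each is shown in capitals with 10 bases on either side, on the minus strand.
First Acta2 box, chr19:34255438-34255467, its first base 84 bases before the start: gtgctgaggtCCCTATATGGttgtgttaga
Second Acta2 box, chr19:34255388-34255417, its first base 34 bases before the start: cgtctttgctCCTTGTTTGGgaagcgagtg
A match describes these letters only, and a window without one says nothing about binding further away. Each window is set on 1 start, which need not be the outer end of the gene. The Mylk window, chr16:34784700-34784999, lies inside the listed span of Mylk, 34745199-35002436. Both Acta2 boxes lie inside the listed span of Acta2, 34240336-34255585. Among the other genes, Des and Lmod1 lie on chromosome 1, Actg2 on 6, Cnn1 and Tagln on 9, Smtn and Kcnmb1 on 11, and Myh11 and Mylk on 16.

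Before the results, 4 arrays need to be set apart. Gapdh is read by control probe sets at both ends of its transcript, and the 3′ over 5′ ratio, which grows as RNA is broken or labelled incompletely, was above 2 for 4pm b (34.3), 4pm c (2.33), 4am a (36.0) and 4am b (18.2), against 0.746 to 1.12 for the other 14. The median signal of an array lay between 127 (4am a) and 251 (12am c). Results are therefore given with all 18 arrays and with the 14 arrays of low ratio. With the 14, both 4pm and 4am are left with 1 array, whose spread is assumed to be that of the other times.

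With all arrays none of the 10 contractile genes passed the test of any difference between the 6 collection times, and none passed a test for a 24 h curve. The first test called 0 of 10 members and 17% of all genes tested (limma F test on log2(signal + 16), Benjamini-Hochberg adjusted p under 0.05). At an unadjusted p under 0.05 there were 3 members, Acta2, Cnn1 and Des, and 42.3% of all genes. The curve, a cosine repeating every 24 h, called 0 of 10 and 0.0389% of all genes, and at an unadjusted p under 0.05 it held 0 of 10 and 3.95% of all genes. The median range between the highest and the lowest time was 1.03 on the log2 scale over the 10 members and 0.90 over all genes, and with the 14 arrays 0.53 and 0.71. Log2 amplitudes of the curve ran between 0.08 ± 0.12 (SE) for Kcnmb1 and 0.85 ± 0.46 for Des. With the 14 arrays of low ratio they ran between 0.04 ± 0.10 for Cnn1 and 0.26 ± 0.21 for Des, again with 0 of 10 called and 0.0389% of all genes. When the 6 times were ordered by their mean, the arrays of neighbouring times overlapped at every step for 10 of 10 members, whereas 29.1% of all genes had at least 1 step without overlap.

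**Figure D1:**
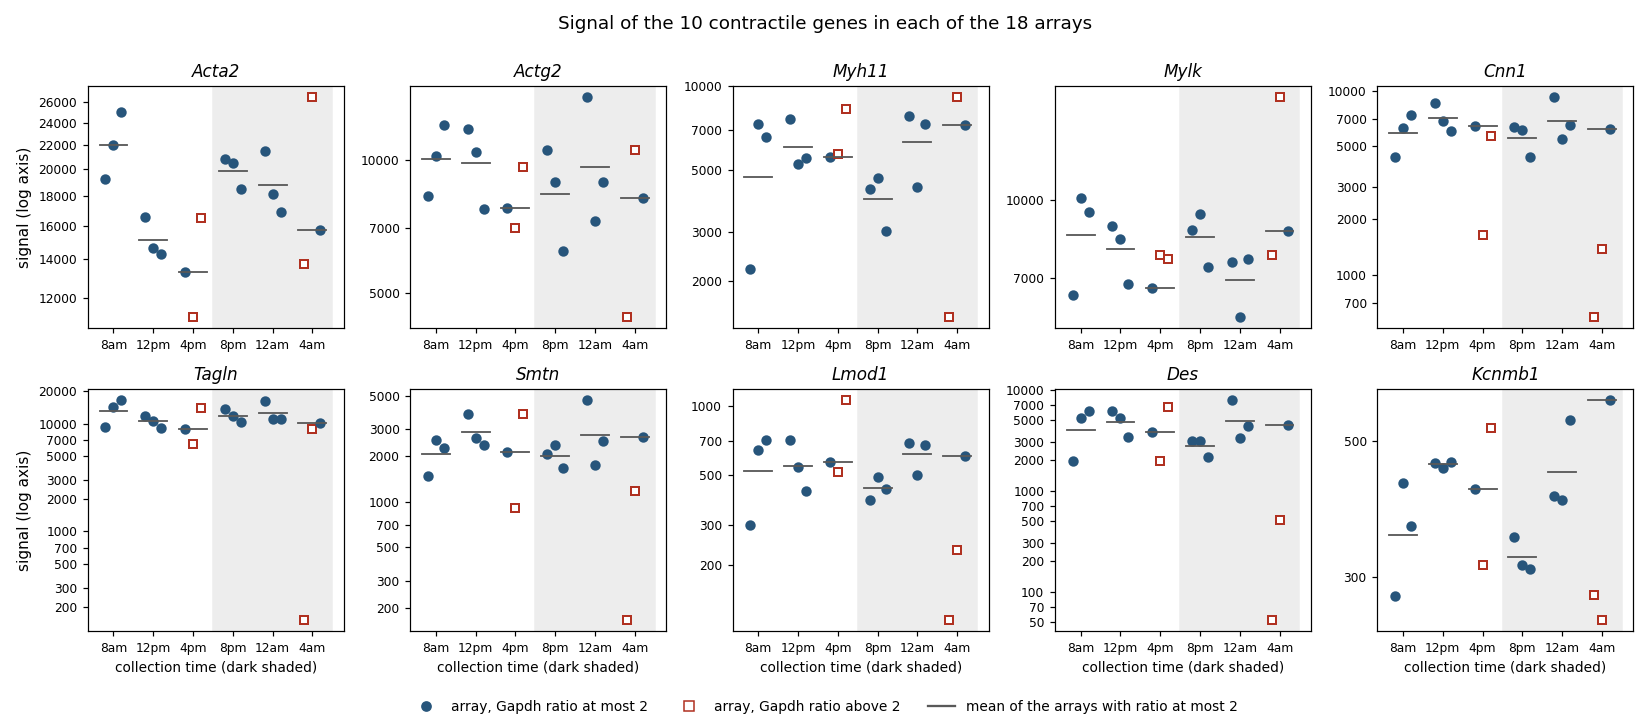
Signal per array (log axis, its own range for each gene) against collection time for the probe set that stands for each gene; dark times are shaded, open red squares are the 4 arrays with a Gapdh ratio above 2, and short lines are the means, taken on the log2 scale, of the other arrays of a time. Tagln, Des, Cnn1 and Smtn have red squares far below their other arrays. Acta2 has its low values at 12pm and 4pm and in 4am a and 4am c.

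First come the 2 muscle actins. Acta2, alpha actin of smooth muscle and the best known marker of the tissue, had signals of 19186, 21949.8 and 25074 in the 8am arrays, 16542, 14649 and 14279.6 in the 12pm arrays, 13337, 11136 and 16514 in the 4pm arrays, 20759, 20482 and 18449 in the 8pm arrays, 21505, 18121 and 16887 in the 12am arrays, and 13736, 26519 and 15748 in the 4am arrays. The arrays of 8am, 8pm and 12am all lay above every array of 12pm and 4pm, and above 4am a and 4am c. No share over all genes is given here for that order, so it is not read as particular to Acta2. Acta2 was highest in 4am b, which stood alone at the top. Its mean log2 signal was highest at 8am (14.42 ± 0.19, SD, n = 3) and lowest at 4pm (13.72 ± 0.28), a range of 0.70 or 1.63-fold that missed the threshold with all arrays (limma adjusted p = 0.102). Without 4am b alone the adjusted p was 0.0283, and with the 14 arrays of low ratio it was 0.0303, where 20.5% of all genes passed. Leaving out each array in turn gave adjusted p between 0.0283 and 0.206.

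The probe set behind these Acta2 values, 1416454_s_at, carries the suffix given to sets whose probes match transcripts of more than 1 gene, so near-identical actins may contribute. The Actb control at its 3′ end was low in 4am a and at 4pm and high at 8am and in 4am b, with 27502, 26999.9 and 31812 in the 8am arrays, 15645, 10783 and 19117 in the 4pm arrays, and 7366, 31657 and 17289 in the 4am arrays. Krt8, an epithelial keratin, had 23613, 23791 and 28504 at 8am and 14949, 14119 and 19856 at 4pm. Their part in the Acta2 values was not tested. A second Acta2 set, 1444105_at, had signals between 93.5 (4am a) and 676 (8am b) and an adjusted p of 0.458 for any difference between times in a limma fit of every probe set. Both Acta2 sets had 3 of 3 arrays at 12pm below 3 of 3 at 12am, an order that 9.97% of all probe sets showed.

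Actg2, gamma actin and the main actin of visceral muscle, had signals of 8280.4, 10199 and 12008 in the 8am arrays, 11760.3, 10403 and 7716 in the 12pm arrays, 7785, 6997 and 9627 in the 4pm arrays, 10538, 8895 and 6195 in the 8pm arrays, 13841, 7269.7 and 8902 in the 12am arrays, and 4391, 10510.2 and 8168 in the 4am arrays. Arrays of all 6 times were mixed, with 12am a highest and 4am a lowest. Its adjusted p for any difference between times was 0.639, and 0.807 with the 14 arrays.

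Of the motor proteins, Myh11 encodes the heavy chain of smooth muscle myosin, which carries the motor domain. Its main set had 2214, 7311 and 6592 in the 8am arrays, 7663, 5293 and 5532 in the 12pm arrays, 5578, 5704 and 8324 in the 4pm arrays, 4294, 4688 and 3031 in the 8pm arrays, 7810.3, 4372 and 7316 in the 12am arrays, and 1486, 9137 and 7261 in the 4am arrays. The lowest and the highest of the 18 values were both from 4am, in a and b, and 8am a was the next lowest. No difference between times passed (adjusted p = 0.741, and 0.481 with the 14 arrays). The second Myh11 set, 1418122_at, was dimmer, between 122 and 619, and had the same lowest and highest arrays.

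Mylk encodes the kinase that phosphorylates the myosin light chain, and it was read by 3 probe sets. The brightest, 1425506_at, had 6484, 10067 and 9454 in the 8am arrays, 8880.0, 8363 and 6813 in the 12pm arrays, 6686, 7759 and 7631 in the 4pm arrays, 8701, 9379.8 and 7346 in the 8pm arrays, 7527, 5838 and 7619 in the 12am arrays, and 7769, 15978 and 8659.5 in the 4am arrays. Apart from 4am b, the arrays stayed within a 1.72-fold band, the narrowest among the 10 genes over the 14 arrays of low ratio. All 3 arrays at 4pm lay below all 3 at 4am, as 2.19% of all probe sets did, but the difference did not pass (log2 difference -0.48 ± 0.24, SE, limma adjusted p = 0.277).

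The set 1425505_at had 1510.2, 2189.8 and 2445 in the 8am arrays, 6277, 3921 and 3662 in the 12pm arrays, 3928, 3273 and 6677 in the 4pm arrays, 2067, 2666 and 1247 in the 8pm arrays, 8229.8, 4079 and 4688 in the 12am arrays, and 398, 4627 and 5155 in the 4am arrays. The 6 arrays of 8am and 8pm all lay below the 6 arrays of 12pm and 12am, an order found for 8.32% of all probe sets. With all 18 arrays, any difference between the 6 times had an adjusted p of 0.214, and with the 14 arrays it was 0.0097. Testing every probe set, 0 of the members' 16 passed with all arrays and 3 of 16 with the 14, where 12.9% and 20.7% of all probe sets passed. The third set, 1425504_at, had 759, 1949.5 and 1634 in the 8am arrays, 1359, 1279 and 1161 in the 12pm arrays, 915, 234 and 543 in the 4pm arrays, 877, 887 and 836 in the 8pm arrays, 928, 1147 and 1451 in the 12am arrays, and 37.2, 648 and 2440.2 in the 4am arrays, and did not pass in either fit (adjusted p = 0.414 and 0.0849). Its lowest arrays, 4am a, 4pm b and 4pm c, all have a Gapdh ratio above 2. Log2 values of 1425504_at and 1425505_at correlated at r = 0.59 over the 18 arrays and 0.33 over the 14, those of 1425504_at and 1425506_at at 0.08 and 0.49, and those of 1425505_at and 1425506_at at 0.09 and -0.04, points that share RNA and array. Which pair was most alike thus changed with the arrays used. Which Mylk transcripts each set reads is not given in the sources used here.

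**Figure D2:**
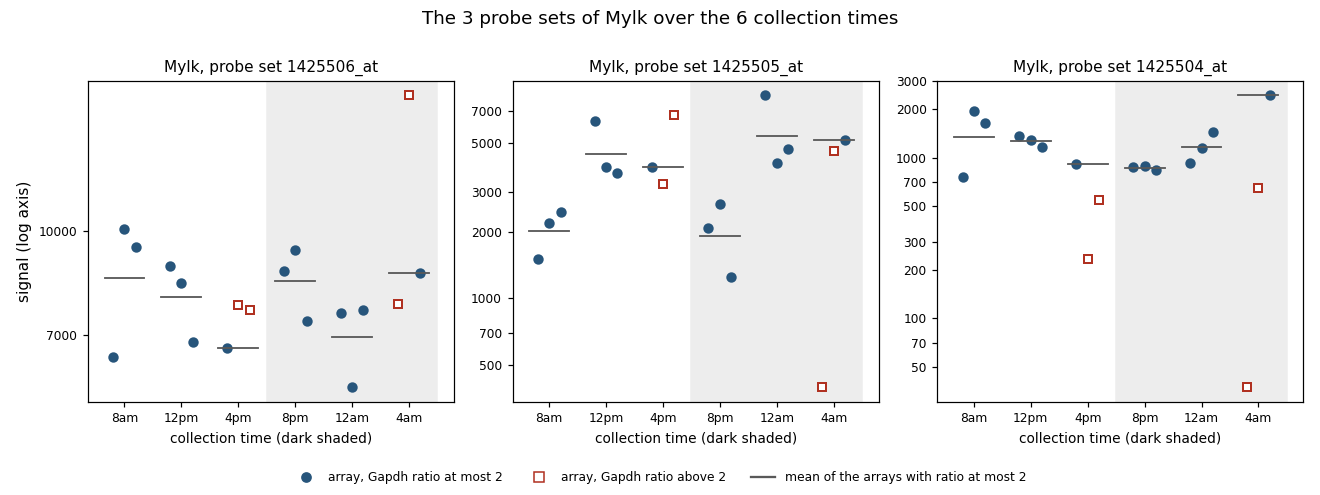
Signal (log axis) of the 3 Mylk probe sets against collection time, with dark times shaded, the 4 arrays with a Gapdh ratio above 2 as open red squares and the log2-scale mean of the other arrays of a time as a line. In 1425505_at the arrays of 8am and 8pm, at 1247 to 2666, lie below those of 12pm and 12am, at 3662 to 8229.8, and in 4am a the sets 1425504_at and 1425505_at drop to 37.2 and 398 while 1425506_at stays at 7769.

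Proteins that sit on the thin filament came next. Cnn1, calponin, which binds actin and slows the myosin motor, had 4332, 6285 and 7369 in the 8am arrays, 8522, 6855 and 6059.9 in the 12pm arrays, 6459.6, 1651 and 5640.1 in the 4pm arrays, 6335, 6102 and 4375 in the 8pm arrays, 9183, 5446 and 6504 in the 12am arrays, and 587, 1377 and 6182 in the 4am arrays. The values of 4pm b, 4am a and 4am b lay below all 15 others, and those 3 arrays had the highest Gapdh ratios. Cnn1 had an adjusted p of 0.0921 for any difference between times, and 0.703 with the 14 arrays.

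Tagln, transgelin or SM22, an actin-bundling protein, had 9431, 14329 and 16632 in the 8am arrays, 11839, 10659 and 9192 in the 12pm arrays, 8913, 6480.0 and 14121 in the 4pm arrays, 13669, 11874 and 10459 in the 8pm arrays, 16380.1, 11087 and 11103 in the 12am arrays, and 150.2, 8953 and 10216 in the 4am arrays. A single array, 4am a, was far below the remaining 17, which spanned 6480.0 to 16632. The test of any difference between times gave an adjusted p of 0.257, and 0.468 with the 14 arrays.

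Smtn encodes smoothelin, a marker of contractile smooth muscle, and had 1479, 2555 and 2271 in the 8am arrays, 3802, 2629 and 2359.8 in the 12pm arrays, 2113, 908 and 3785 in the 4pm arrays, 2071, 2357 and 1657 in the 8pm arrays, 4676, 1742 and 2525 in the 12am arrays, and 166, 1182 and 2685 in the 4am arrays. Lmod1, leiomodin, which starts new actin filaments, had 301, 643 and 708 in the 8am arrays, 708, 538 and 425 in the 12pm arrays, 568, 514 and 1061 in the 4pm arrays, 387, 489.9 and 433 in the 8pm arrays, 689.6, 496 and 677 in the 12am arrays, and 115, 233 and 601 in the 4am arrays. In both, 4am a was lowest and 4pm c was among the highest arrays. Neither passed (adjusted p = 0.269 for Smtn and 0.158 for Lmod1), nor did they with the 14 arrays (0.538 and 0.712).

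Des, desmin, forms the intermediate filaments that tie the contractile units together. Its main set, 1426731_at, had 1962, 5290.1 and 6162 in the 8am arrays, 6133, 5248 and 3383 in the 12pm arrays, 3813, 1987 and 6699.7 in the 4pm arrays, 3083, 3122 and 2133 in the 8pm arrays, 7893, 3341 and 4331 in the 12am arrays, and 52.3, 507 and 4419 in the 4am arrays. Arrays 4am a and 4am b were the lowest, and the remaining 16 spread over all times. Its adjusted p was 0.0903, and 0.461 with the 14 arrays.

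A second Des set, 1426732_at, was dimmer, with 163, 133 and 130.4 in the 8am arrays, 237, 227 and 406 in the 12pm arrays, 203, 166 and 391 in the 4pm arrays, 227, 288 and 328 in the 8pm arrays, 242, 549.7 and 490.0 in the 12am arrays, and 128, 218 and 292 in the 4am arrays. The 3 arrays at 8am lay below the 3 at 8pm, as 7.98% of all probe sets did, with a log2 difference of -0.90 ± 0.37 (SE, limma adjusted p = 1.00, where 0.0037% of all probe sets passed). Its adjusted p for any difference between times was 0.0972 with 18 arrays and 0.0437 with the 14. The 2 Des sets correlated at r = 0.33 over the 18 arrays and -0.24 over the 14, points that share RNA and array.

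Kcnmb1 encodes the beta subunit that makes the large-conductance potassium channel of smooth muscle more sensitive to calcium, and so favours relaxation. It had 279, 427 and 363 in the 8am arrays, 460.2, 453 and 462 in the 12pm arrays, 417, 313 and 525 in the 4pm arrays, 349, 313 and 309 in the 8pm arrays, 407, 401 and 542 in the 12am arrays, and 280.1, 255 and 584 in the 4am arrays. The 12pm arrays lay above all arrays of 8am and 8pm, but 4pm and 4am each spread over most of the range. The share of all genes with this order is not given here. A stricter order, with the 12am arrays also above those of 8am and 8pm, held for 8.32% of all probe sets but not for Kcnmb1. Adjusted p for any difference between times was 0.498, and 0.119 with the 14 arrays. Its second set, 1421401_at, between 85.9 and 403, had 3 of 3 arrays at 12pm above 3 of 3 at 12am, as 10.6% of all probe sets did, and did not pass (0.0859 for any difference between times).

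Array 4am a held the lowest values of most members. There, 10 of 10 members lay below their median over the 14 arrays of low ratio, against 51.4% of all genes, and 7 of 10 lay below it by more than 1 on the log2 scale, against 22.1%. On the log2(signal + 16) scale Tagln was 66.9-fold lower, Des 59.7-fold, Smtn 13.1-fold, Cnn1 10.5-fold, Lmod1 4.34-fold, Myh11 3.71-fold and Actg2 2.02-fold. Yet the brightest sets of Acta2 and Mylk were 1.33-fold and 1.03-fold lower in the same array, while the other Mylk sets were 22.0-fold and 9.19-fold lower, the second Acta2 set 4.10-fold, the second Des set 1.77-fold and Kcnmb1 1.45-fold. The log2 values of Des 1426731_at, Lmod1, Mylk 1425504_at and Acta2 1444105_at in 4am a lay below the filter value of 7.10, and no background level is given, so the sizes of their folds are uncertain. This array was the lowest of the 18 for 7 of 10 members and for 22.1% of all genes, and the highest for 21.6% of all genes. Array 12am a was the highest for 4 of 10 members and for 7% of all genes.

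The other arrays of high ratio differed among themselves. In 4am b, 3 of 10 members lay more than 1 below the median on the log2 scale, as 17.1% of all genes did. Des was 7.80-fold, Cnn1 4.54-fold and Lmod1 2.28-fold below it, while Acta2, Myh11 and Mylk had their highest value of all 18 (1.45-fold, 1.64-fold and 2.00-fold above the median), an array that was highest for 10.9% of all genes. In 4pm b, Cnn1 was 3.79-fold, Smtn 2.57-fold and Des 2.04-fold lower, 3 of 10 by more than 1 on the log2 scale against 8.41% of all genes, whereas Myh11 was 1.03-fold higher. In 4pm c, 3 of 10 members were below the median, 0 of 10 by more than 1 on the log2 scale against 2.4% of all genes, and Lmod1 was 1.89-fold above it. The part of the 3′ to 5′ ratio in these values was not tested.

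**Figure D3:**
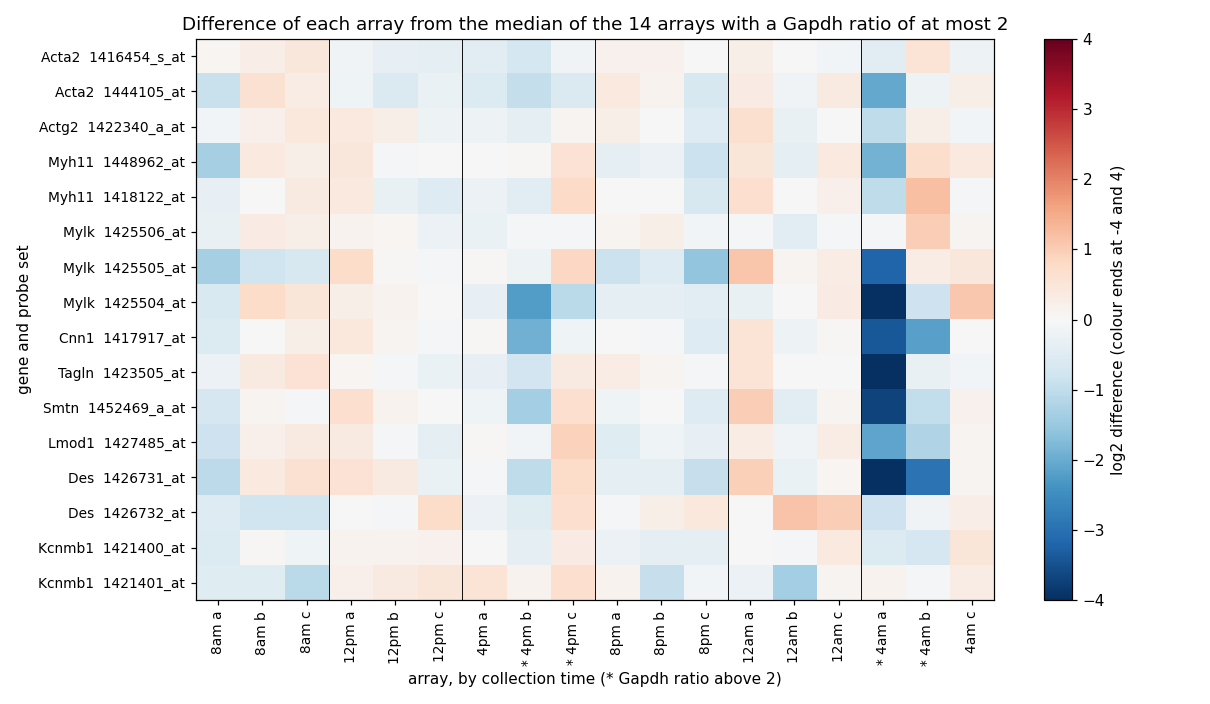
Log2 difference of each array (columns, by collection time, a star for a Gapdh ratio above 2) from the median of the 14 arrays of low ratio, for the 16 tested probe sets (rows); red is above and blue below, and colours end at -4 and 4. The column of 4am a is blue for most sets, darkest for Tagln, Des 1426731_at and Mylk 1425504_at, but nearly white for Mylk 1425506_at.

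Light against dark asks whether the contractile apparatus is set differently in the rest and active parts of the day of a mouse, and no member passed that test: 0 of 10 with all arrays and 0 of 10 with the 14, where 0% of all genes passed in both fits. At an unadjusted p under 0.05, limma with all arrays held 0 of 10 members and 6.21% of all genes. The largest difference among the members was that of Des, with mean log2 signals of 12.02 ± 0.68 in the light and 10.92 ± 2.10 in the dark (SD, n = 9 each), a difference of 1.10 with a 95% interval from -0.05 to 2.25 (limma adjusted p = 0.749). With the 14 arrays the Des difference was 0.10, with an interval from -0.50 to 0.70. Tagln averaged 13.41 ± 0.42 in the light and 12.82 ± 2.06 in the dark, a difference of 0.60 that was -0.11 with the 14 arrays. Acta2 averaged 14.01 ± 0.37 in the light and 14.20 ± 0.28 in the dark, a difference of -0.19 with an interval from -0.45 to 0.06.

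With all arrays 8 of 10 members had a positive difference and the median was 0.33, against 6615 of 12870 genes and a median of 0.01 over all genes. With the 14 arrays 3 of 10 were positive and the median was -0.05, against 6097 genes and -0.01. Across the 16 tested probe sets, 0 had light and dark arrays that did not overlap, beside 0.0037% of all probe sets with the light arrays lower and 0% with them higher. Leaving out 4am c, the only 4am array of low ratio, brought Des past the threshold at 1.61 (limma adjusted p = 0.0137), where 7.42% of all genes passed.

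**Figure D4:**
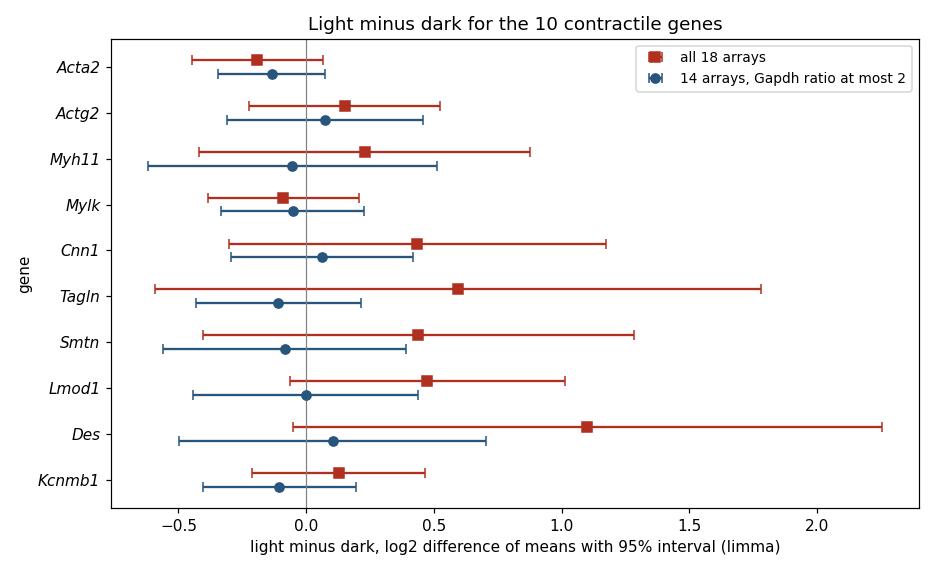
Light minus dark difference of mean log2 values (horizontal axis) for each gene, with 95% intervals from limma, for all 18 arrays (red squares) and for the 14 arrays with a Gapdh ratio of at most 2 (blue circles). Every interval crosses 0, and the differences of Des, Tagln, Smtn, Cnn1 and Lmod1 move towards 0 when the 4 arrays are left out.

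Set against each other, times 12 h apart gave no call either. At 8am against 8pm 0 of 10 passed, with 0.00777% of all genes passing, although 10 of 10 members had a higher mean at 8am (5708 of 12870 genes did). Those differences, read from the brightest set of each gene, ran from 0.01 ± 0.24 for Mylk to 0.54 ± 0.95 for Des, with 95% intervals that all include 0. Of the further tested sets, 2 had lower means at 8am and the others higher ones. The 2 were Des 1426732_at (-0.90, 95% interval -1.68 to -0.12) and Kcnmb1 1421401_at (-0.39, -1.13 to 0.35). At 12pm against 12am 0 of 10 passed, with 0% of all genes passing, and differences lay between -0.31 (Acta2) and 0.20 (Mylk). Acta2 reached an unadjusted p of 0.0344 there with the 14 arrays (limma adjusted p = 0.233), as 18.5% of all genes reached one under 0.05. At 4pm against 4am 0 of 10 passed, with 0.0466% of all genes passing, but here differences were larger: 2.78 ± 0.95 for Des, 1.92 ± 0.97 for Tagln and 1.35 ± 0.44 for Lmod1, against -0.48 ± 0.24 for Mylk and -0.41 ± 0.21 for Acta2. Among the members Des and Lmod1 reached an unadjusted p under 0.05 (0.00912 and 0.00715), and 19.7% of all genes did. With the 14 arrays these contrasts called 0 of 10 each, beside 0.124%, 0.723% and 0% of all genes in the order given.

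At 4pm against 4am the result turned on which 4am arrays were used. With 4am c left out, which keeps 2 arrays of high ratio at 4am, Des (4.30), Tagln (2.94), Cnn1 (2.10), Smtn (2.07) and Lmod1 (1.94) passed, 5 of 10 members, where 31.8% of all genes passed. The same 5 genes then also passed the test of any difference between times, where 53.9% of all genes did, and Cnn1, Tagln, Des, Kcnmb1 and Smtn passed the test of 3 sets described next, where 58.5% did. With the 14 arrays of low ratio the same contrast rested on 4pm a and 4am c alone, and 1 of 10 members, Cnn1 at 0.06, had a positive difference, with the other 9 between -0.47 and -0.07.

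Many genes of this series go together at times 12 h apart, that is 8am with 8pm, 12pm with 12am and 4pm with 4am, a grouping noticed in earlier results of these data that no label names as a batch. For the difference between these 3 sets, 1 of 10 members passed, Cnn1, against 35% of all genes. The Cnn1 sets ranged over 1.42 on the log2 scale (limma adjusted p = 0.0352), and this call was lost without the arrays of high ratio: with the 14 arrays the range was 0.29 (adjusted p = 0.317), and the p without 4pm b, 4am a or 4am b alone was 0.104, 0.0840 or 0.0717, with ranges of 1.11, 1.04 and 1.34. Leaving out 8am c, 12pm a, 12pm b, 12pm c, 8pm a, 8pm b, 12am a or 12am c also moved it above the threshold, to at most 0.0623, with ranges between 1.32 and 1.48.

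With the 14 arrays Acta2 (range 0.53, adjusted p = 0.0117) and Kcnmb1 (0.53, adjusted p = 0.0369) passed the test of the 3 sets, 2 of 10 members, where 31.7% of all genes passed. Tested probe set by probe set over the same arrays, a choice made after seeing the data, Mylk 1425505_at had the widest range, 1.33 (adjusted p = 0.00131), and Des 1426732_at passed at 0.71 (0.0486), where 4 of the members' 16 and 31.4% of all probe sets passed. With all arrays 1 of 16 did, that of Cnn1, beside 33.9% of all probe sets. Kcnmb1 1421400_at had 279 to 427 at 8am and 8pm, against 401 to 542 at 12pm and 12am, and these groups of arrays overlapped. Over the same 14 arrays Acta2 had higher means at 8am and 8pm than at 12pm and 12am, and Mylk 1425505_at and Kcnmb1 had lower ones.

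Among the 14 arrays of low ratio the members shared a few high and low arrays. Array 8am a was the lowest of the 14 for 6 of 10 members, Myh11, Cnn1, Des, Smtn, Lmod1 and Kcnmb1, and for 11.9% of all genes. Array 12am a was the highest for 5 of 10, Actg2, Myh11, Cnn1, Des and Smtn, and for 11.4% of all genes. Pearson correlations of log2 values between the 45 pairs of members had a median of 0.56 over the 14 arrays (range -0.50 to 0.93) and of 0.64 over all 18 (range -0.26 to 0.95), points that share RNA and array.

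Markers of other cell types had extreme values in the same arrays. The mean log2 value of 16 epithelial markers was highest in 8am a of all 18 arrays (13.5) and lowest in 4am a (12.2). Their summed signal, however, was highest in 8am c (247678, with 229554 in 8am a). The mean log2 value of 6 adipose markers was lowest in 8am a (6.56) and highest in 4am a (9.75). Array 8am a was also the lowest of the 18 for the mean of 12 fibroblast markers (10.45, close to 10.46 in 8pm c), 10 of pericytes and vascular muscle (8.44) and 12 of enteric neurons and glia (7.68). Summed signals of these lists overlapped between light and dark: epithelium 145789 to 247678 in the light and 134503 to 246339 in the dark, adipose 1144 to 7357 in the light and 2727 to 18412 in the dark, and fibroblasts 30071 to 53635 in the light and 29796 to 74851 in the dark. Markers of pericytes and vascular muscle summed to 5028 to 11517 in the light and 6528 to 11029.6 in the dark. The remaining cell types had their lowest mean log2 value of the 18 in other arrays than 8am a. These were 4am a for endothelium (7.47) and interstitial cells of Cajal (9.94), and 8am c for skeletal muscle (6.11). Anal squamous epithelium was lowest in 8am b (6.52), close to 6.53 in 8am a. Over the 14 arrays of low ratio, however, endothelium was lowest in 8am a (7.74), with 4am c next (7.92), as many members were lowest in 8am a. The part of tissue composition in the members' values was not tested.

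Skeletal muscle surrounds the anal canal, and most of its markers were dim here. Of 18 such markers 7 passed the filter. The sum of all 18 lay between 1626 and 2938 in the light and between 1903 and 3566 in the dark. The myosin Myh4 had signals of 7.8 to 92.5 and nebulin, Neb, of 1.5 to 62.3. Brighter markers of the list included Ckm, at 92.8 to 787, Acta1, at 66.5 to 1063, and Casq1, at 183 to 782. None of the 18 was listed at 0.

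**Figure D5:**
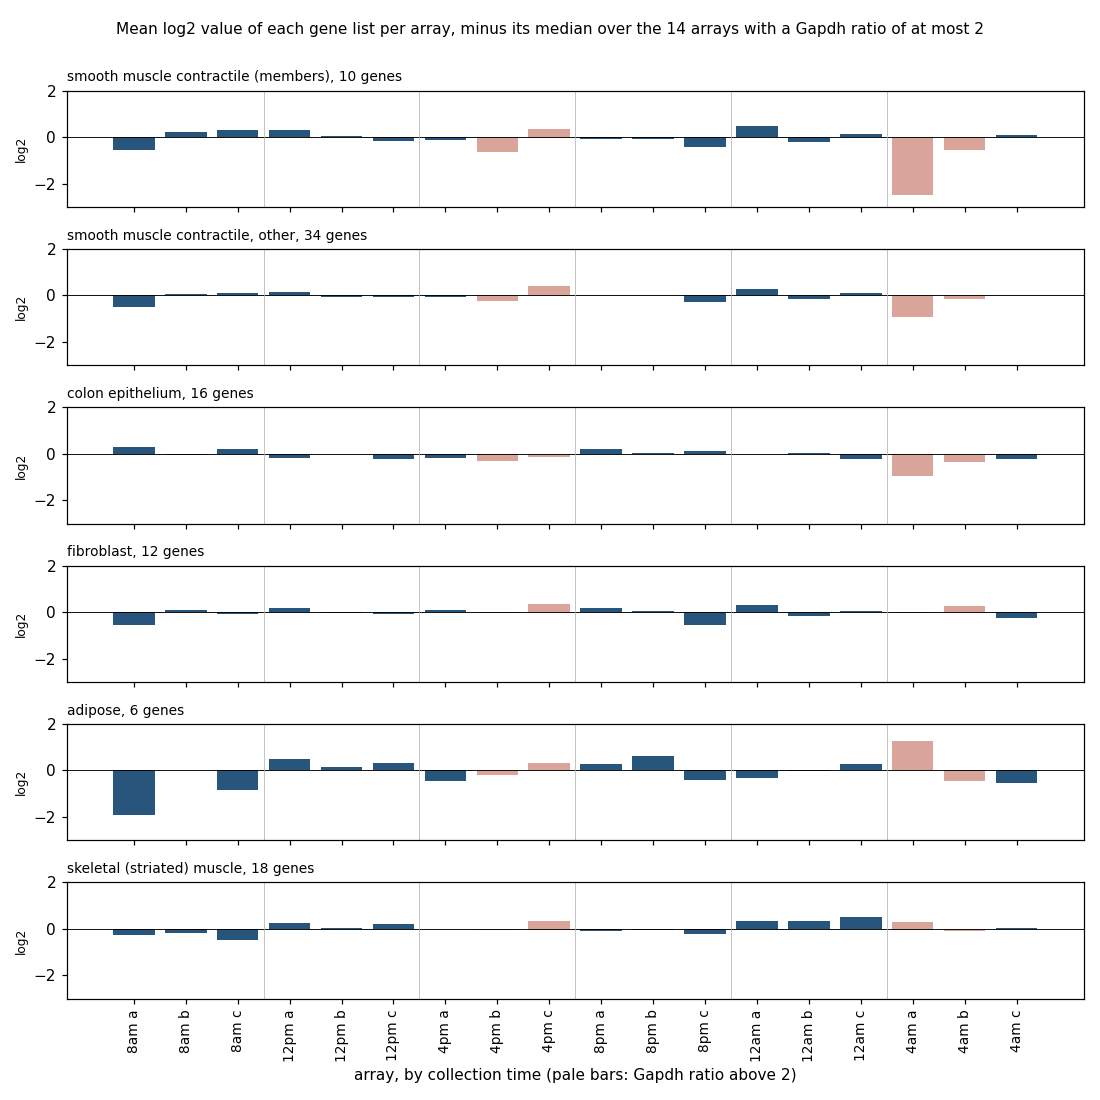
Mean log2 value of 6 gene lists in each array minus its median over the 14 arrays of low Gapdh ratio, with pale bars for the 4 arrays of high ratio. The contractile genes are lowest in 4am a and, among the arrays of low ratio, in 8am a. There the mean log2 value of adipose markers is lowest and that of epithelial markers highest, though the summed epithelial signal is higher in 8am c.

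Next came the wider contractile machinery. Of 33 further structural genes, such as myosin light chains, tropomyosins and filament anchors, 3 passed the test of any difference between times with all arrays, beside 17% of all genes. They were Lpp, a protein of cell adhesion sites (range 1.53, adjusted p = 0.00481), Itga8, an integrin that ties muscle to matrix (1.34, 0.0156), and Cryab, a small heat shock protein that protects desmin (1.33, 0.0223). The median range of the list was 0.85, against 0.90 over all genes, and 3 of 33 passed with the 14 arrays, beside 20.5% of all genes. Myl9, the light chain that Mylk phosphorylates, had a range of 2.74 with all arrays (adjusted p = 0.0961) and of 0.47 with the 14 (0.509), and Tpm2, a tropomyosin, 0.40 and 0.64 (0.741 and 0.433).

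Among 24 genes that control contraction, 3 passed, beside 17% of all genes: Ppp1r12a, the targeting subunit of myosin phosphatase (1.23, adjusted p = 0.0165), Rhoa, the small GTPase that keeps this phosphatase in check (0.96, 0.0183), and Camk2g, a calmodulin-dependent kinase (1.31, 0.0276). The median range was 0.95, and 5 of 24 passed with the 14 arrays, beside 20.5% of all genes. Myocd had a range of 1.35 with all arrays (adjusted p = 0.0939) and of 1.29 with the 14 (0.0259). Its partner Srf had ranges of 0.59 and 0.37 and did not pass in either fit (0.427 and 0.616). Rock1, the kinase that Rhoa activates, had 0.93 (0.0619) and 0.75 (0.0869).

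Of 22 genes for calcium handling and channels, 5 passed, beside 17% of all genes. Orai1, the pore of store-operated calcium entry, had a range of 2.96 (adjusted p = 0.00772), Ryr2, a calcium release channel, 1.34 (0.0149), Abcc9, a subunit of the ATP-sensitive potassium channel that also marks pericytes, 1.34 (0.0193), Cacna2d1, an accessory subunit of calcium channels, 1.80 (0.0367), and Gna11, a G protein that couples receptors to calcium release, 2.60 (0.0462). The median range was 1.09, and with the 14 arrays 4 of 22 passed, with Orai1 and Gna11 among them, beside 20.5% of all genes. Kcnma1, the pore with which Kcnmb1 assembles, missed the threshold with all arrays (0.93, adjusted p = 0.0569) and with the 14 (0.58, 0.117). Pln, which restrains the calcium pump, and Cacna1c, the L-type calcium channel, did not pass in either fit.

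For the 3 sets of times 12 h apart, where 35% of all genes passed, 8 of 33 structural, 11 of 24 control and 12 of 22 calcium and channel genes did, and 7, 8 and 10 with the 14 arrays, where 31.7% of all genes passed. The control genes included Myocd (1.19, adjusted p = 0.0241, and 0.00535 with the 14 arrays) and Rock1 (0.70, 0.0159), and the channels Kcnma1 (0.83, 0.0112). No gene of the 3 lists passed the 24 h curve, light against dark or any contrast of times 12 h apart with all arrays.

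Likeness of pattern was read from the correlation of each gene with the mean standardized profile of the 10 members, over arrays that share RNA and array, as a description, and the members themselves enter that profile. Smtn followed the profile best over the 18 arrays (r = 0.95), and Acta2 (0.43) and Mylk (0.22) least among the members. Over the 14 arrays Des (0.95) and Cnn1 (0.91) were closest and Acta2 (0.34) was the least alike, while Mylk had 0.65. Of the 33 further structural genes, 18 were among the 100 genes most like the profile over the 14 arrays and 8 over the 18. Pdlim3, which links alpha actinin to other proteins at filament anchors, had r = 0.93 over the 14 arrays and 0.48 over the 18, and Hspb6, a small heat shock protein of muscle, 0.93 and 0.08.

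Outside these lists, the genes most like the members over the 18 arrays were Aldh2, Fxyd1, Wdtc1, Klf5, Wipi2, Tbc1d17, Fam168a, Tgfb3, Loxl1, Glg1, Kif3b and Rnf216, with r between 0.89 and 0.92. Over the 14 arrays they were Thy1, Chmp1a, Cav1, Tnnt2, Aplp2, Igfbp4, Aldh2, Prkcb, S100a4, Slc25a4, Cd59a and Pcp4, with r between 0.80 and 0.91. Cav1, caveolin of the membrane pits common in smooth muscle, had 0.89 over the 14 arrays but -0.31 over the 18. The least alike were Hibch, Atp6v0e, Mrpl22, Acot13 and Dcun1d5 over the 18 arrays (-0.91 to -0.88) and Srp19, Cpne8, Slc9a3, Gcg and Aadac over the 14 (-0.87 to -0.84). Of the 100 most alike genes, 18 were shared between both choices of arrays.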

How the data were processed

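The deposited table holds 1 signal intensity per probe set and array on a linear scale, made by the authors with GCOS, per the submitters' processing notes, which give no version. The trimmed mean was 500 in every array, so each was scaled once. There are no detection calls, and precision depends on the number of arrays and the spread between them. Of 45101 probe sets, 64 controls were set apart. Values were taken as log2(signal + 16). Sets with a mean log2 at or above the 40th percentile (7.10) were kept, 27022 in all, and each of 12870 genes was read from its brightest set. Tests used limma 3.58.1 in R 4.3.3 (lmFit, and eBayes with a trend), two-sided, with Benjamini-Hochberg adjustment over all genes or probe sets and a threshold of 0.05. They were tested on simulated data first. Folds are on the log2(signal + 16) scale.

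Groups came from the sample titles. Named were all probe sets of the members, up to 8 called genes with the lowest adjusted p of each muscle list beside 8 fixed genes, and the 12 most and 5 least alike genes in no list. Members, lists, rules and alternatives were chosen with earlier results of these data known. Sequences are from RefSeq on GRCm38.p6.
Alternatives changed the constant, normalization, filter, probe set per gene, array weights, the curve, the replicate block and the arrays used.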

Additional observations from a re-analysis of the deposited data

Results flagged for a closer look

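Within the 9 light and the 9 dark arrays, a value was singled out when its gap to the next array, divided by the range of the 9, exceeded Dixon's 95% critical value for 9 values, which chance does for about 1 group in 20. This held for 5 values on the log2 scale. In the light, Myh11 in 8am a was 11.12, with the next array at 12.37, and Cnn1 in 4pm b was 10.70, with the next at 12.09. In the dark, Tagln in 4am a was 7.38, with the next at 13.13, Smtn in 4am a was 7.51, with the next at 10.23, and Mylk in 4am b was 13.97, the highest, with the next at 13.20. All but 8am a are arrays with a Gapdh ratio above 2.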

How the results depend on the processing

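There were 3 arrays per time, of which 4 in all had a high Gapdh ratio, and the deposited signals come without a background level. The counts below are genes called of 12870 unless members are named. The test of any difference between times gave 3492 probe sets with every set tested, 8974 genes (69.7%) and 6 members with array weights, and 1 member, Acta2, without the 3 or the 4 arrays of highest ratio (22.8% and 20.5% of all genes). The 24 h curve gave 8 with quantile normalization, 3 with every probe set, 29 with array weights and 11 with a 12 h harmonic. Light against dark gave 1 with quantile normalization, 1942 (15.1%) and 3 members with array weights, and 2 without the 3 arrays. The contrast of 8am and 8pm gave 2 without a filter, 286 with array weights, and 18 and 16 without the 3 and the 4 arrays. That of 12pm and 12am gave 1 with a constant of 1, 5 with quantile normalization, 2 with every probe set, 432 with array weights, and 16 and 93 without the 3 and the 4 arrays. That of 4pm and 4am gave 3275 (25.4%) and 5 members with array weights and 0 without the 3 or the 4 arrays. The 3 sets of times gave 9164 probe sets with every set tested, 7929 genes (61.6%) and 6 members with array weights, and 2 members, Acta2 and Kcnmb1, without the 3 or the 4 arrays (31.6% and 31.7% of all genes). The cause of these shifts was not tested, beyond fewer arrays or more probe sets in a fit.

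Leaving out 1 array gave, for any difference between times, 792 to 6942 genes and 0 to 5 members, for the 24 h curve 1 to 8 and 0, for light against dark 0 to 955 and 0 to 1, for 8am against 8pm 0 to 4 and 0, for 12pm against 12am 0 to 3 and 0, for 4pm against 4am 2 to 4090 and 0 to 5, and for the 3 sets 2957 to 7533 and 0 to 5. The counts of 5 members came without 4am c. Of 1830 values of single members under an alternative, 1774 stayed on the same side of the threshold, 56 of them with a change of sign but no call in either fit, 13 lost a call, all for Cnn1 between the 3 sets, and 43 gained one.

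The replicate letters did not pair the arrays: over 45 pairs of same-lettered arrays the correlation of their deviations averaged -0.01 (range -0.49 to 0.30, 6 above 0.1). With the replicate block, 1773 genes and 0 members passed the test of any difference between times, 1 the 24 h curve, 6 the contrast of 4pm and 4am, and 4374 genes and 1 member the 3 sets.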
